A study of Homo sapiens with 16 samples.

Results

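The subunits of the proteasome, the activators that dock on it and the chaperones that assemble it are encoded by genes whose symbols begin with PSM, and their RNA was followed here in 2 liver cancer cell lines in which the transcript PANAD had been targeted by siRNA. Members were the protein-coding genes with a symbol of the form PSMA, PSMB, PSMC, PSMD, PSME or PSMG followed by a number, 49 of the 67938 gene rows of the count tables. Another 51 rows whose symbols fit that form were pseudogenes or non-coding RNAs and were left out. Of the 49 genes, 47 encode subunits, activators or chaperones, while PSMC3IP and PSME3IP1 encode proteins that interact with PSMC3 and PSME3 and were matched by name only. All values come from RNA, and no proteasome protein or activity was measured.

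HepG2 is a line from a hepatoblastoma that keeps many traits of hepatocytes, and SNU-449 comes from a hepatocellular carcinoma and has a mesenchymal character. Cells of each line received either NC, the negative control siRNA, or siPANAD-1 and siPANAD-2 mixed together, and were separated after 48 hours into cytoplasm and nucleus. The 8 groups (2 lines, 2 fractions, 2 treatments) held 2 biological replicates each, 16 libraries in all, so every group carried an siRNA and no group was left untransfected. Because both siRNAs were given as a mixture, effects of the single siRNAs cannot be told apart.

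The proteasome degrades proteins tagged with ubiquitin. Its 20S core is a stack of rings: the outer rings are built from alpha subunits (PSMA genes) and form the gate, and the inner rings from beta subunits (PSMB genes), among which PSMB5, PSMB6 and PSMB7 carry the proteolytic sites. In cells exposed to interferon, and constitutively in immune cells, the inducible subunits PSMB8, PSMB9 and PSMB10 can replace these to give the immunoproteasome, which shapes the peptides shown on MHC class I. The 19S cap recognises and unfolds substrates with ATPases (PSMC genes) and non-ATPase subunits (most PSMD genes), and the PSME genes encode alternative activators. Cells that lose proteasome capacity are known to raise most of these genes together through the transcription factor NFE2L1.

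Library totals ran from 16238235 to 30321908 counts assigned to genes. The second NC library of HepG2 cytoplasm was the deepest, and it and its replicate differed more than other pairs did. The chi-square over degrees of freedom of that pair was 33.2, against 4.5 to 12.3 in the other replicate pairs. This value belongs to the pair, depends on depth and does not show which of the 2 libraries deviates. The main results that rest on the second library are given with and without it. The siRNA target itself, annotated as C7orf25, had 0 to 7 counts in every library, so these counts could not check the knockdown. The nuclear RNA MALAT1 separated the fractions, at 2.21 to 5.84 CPM (counts scaled to a common library total) in cytoplasm and 370 to 634 CPM in nuclei. The 10 hepatocyte markers summed to 24400 to 32300 CPM in HepG2 but to at most 278 CPM in SNU-449, where ALB, APOB, TTR and HNF4A were at 0 counts in the NC cytoplasm libraries. Those values are CPM of the library total. The levels of single genes that follow are CPM scaled by the trimmed mean of M-values (TMM), a method that assumes most genes do not change, and ± values of CPM are SD over 2 libraries. Differences are log2 fold changes ± standard error from edgeR's quasi-likelihood test, and a gene is said to have risen or fallen where its adjusted p was under 0.05.

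The proteasome genes did not move as a block after siPANAD treatment: the inducible subunits rose in HepG2, many 19S genes fell in both lines, and most alpha and beta subunits of the core showed small differences in cytoplasm. Of the 47 members with enough counts to test, 9 rose and 12 fell in HepG2 cytoplasm, and 6 rose and 18 fell in HepG2 nuclei. In SNU-449, 7 rose and 18 fell in cytoplasm and 4 rose and 24 fell in nuclei. These counts stand against a background in which 47.9%, 45.6%, 39.7% and 46.0% of all tested genes were called in the same comparisons, in the order given. Of all genes, 23.7% rose and 24.2% fell in HepG2 cytoplasm, 22.0% and 23.6% in HepG2 nuclei, 19.6% and 20.1% in SNU-449 cytoplasm and 22.1% and 23.9% in SNU-449 nuclei. The share of members called in HepG2 cytoplasm (44.7%) and HepG2 nuclei (51.1%) was near that background, and it was 53.2% in SNU-449 cytoplasm and 59.6% in SNU-449 nuclei. The direction was less even than over all genes: 38.3% of members fell in HepG2 nuclei, 38.3% in SNU-449 cytoplasm and 51.1% in SNU-449 nuclei. The median log2 fold change of the members was -0.05 in HepG2 cytoplasm, -0.21 in HepG2 nuclei (-0.03 over all genes), -0.17 in SNU-449 cytoplasm (0.04 over all genes) and -0.25 in SNU-449 nuclei (-0.01 over all genes).

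**Figure D1:**
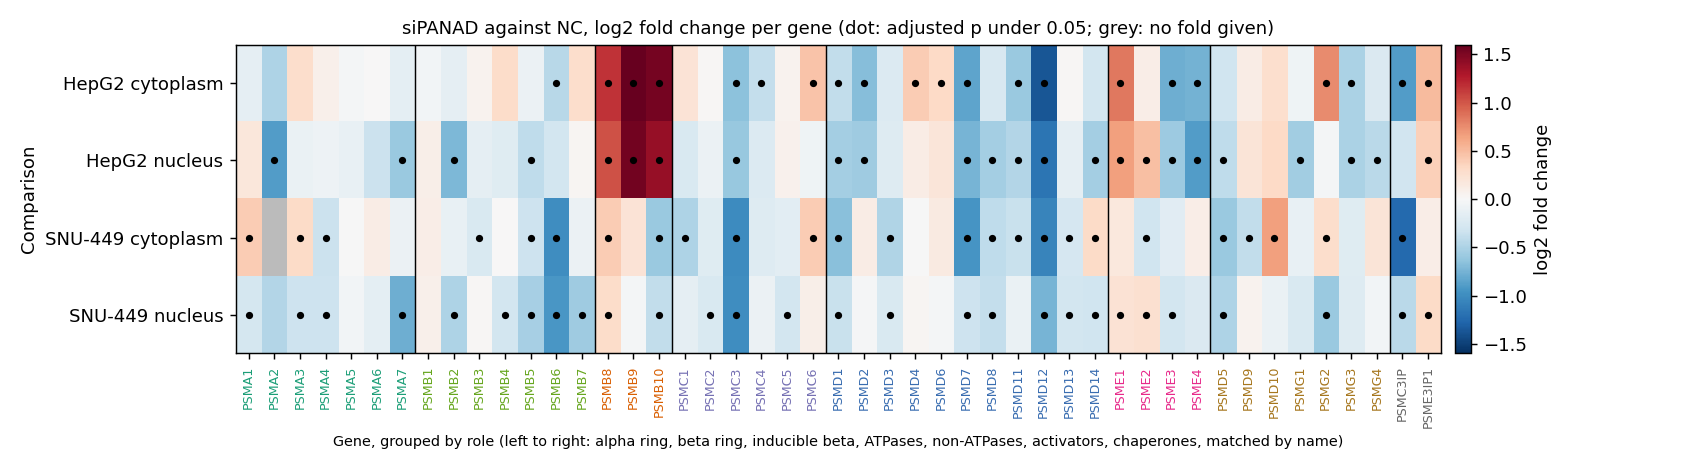
Heat map of the log2 fold change, siPANAD minus NC, of each tested proteasome gene (x axis, grouped by role) in the 4 comparisons (y axis); red is higher and blue lower with siPANAD, a dot marks an adjusted p under 0.05, and grey marks PSMA2 in SNU-449 cytoplasm, where no fold is given. PSMB8, PSMB9 and PSMB10 are deep red in HepG2, and PSMD12 and PSMC3 are blue with a dot in all 4 comparisons.

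The split of rises and falls in HepG2 moved with the scaling. With library totals as the only scaling, 7 members rose and 16 fell in HepG2 cytoplasm and 9 rose and 13 fell in HepG2 nuclei, while the median of all genes moved to -0.12 and 0.14. Without the second NC library of HepG2 cytoplasm, 11 members rose and 15 fell there. Without the second siPANAD nucleus library, 14 members fell in SNU-449 nuclei, and 1 rose without the second NC or the first siPANAD nucleus library. In SNU-449 cytoplasm 4 rose without the second NC library and 2 without the second siPANAD library. Of the calls made, 16 of 21 in HepG2 cytoplasm, 15 of 24 in HepG2 nuclei, 13 of 25 in SNU-449 cytoplasm and 12 of 28 in SNU-449 nuclei kept their direction and significance under all 13 alternative analyses. In bulk RNA, a lower level in every cell cannot be told apart from fewer cells that carry the RNA, and this holds for each fall below. Members together took 0.631 and 0.663% of counts in HepG2 NC cytoplasm against 0.574 and 0.556% with siPANAD, and 0.896 and 0.923% in SNU-449 NC cytoplasm against 0.805 and 0.812%. In SNU-449 nuclei the shares were 0.652 and 0.626% with NC and 0.561 and 0.545% with siPANAD, while in HepG2 nuclei they overlapped, at 0.392 and 0.412% against 0.401 and 0.382%.

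PSMB8, PSMB9 and PSMB10, the inducible catalytic subunits, gave the largest rises among the members in HepG2. PSMB8 stood at 79.2 and 84.5 CPM in HepG2 NC cytoplasm and at 187 and 177 CPM with siPANAD, and in HepG2 nuclei at 22.4 and 24.7 CPM with NC and 49.5 and 45.9 CPM with siPANAD. Both siPANAD libraries lay above both NC libraries in each fraction, and the log2 fold changes were 1.15 ± 0.12 (adjusted p = 2.3e-08) in cytoplasm and 1.02 ± 0.13 (adjusted p = 4.6e-07) in nuclei. In SNU-449 cytoplasm PSMB8 stood at 114 and 111 CPM with NC and 147 and 152 CPM with siPANAD, a smaller rise of 0.41 ± 0.09 (adjusted p = 0.00054). In SNU-449 nuclei it stood at 49.6 and 44.7 CPM against 59.7 and 55.4 CPM, a rise of 0.29 ± 0.10 (adjusted p = 0.0134) that was lost without the second NC library (0.20, adjusted p = 0.159), without the first siPANAD library (0.22, adjusted p = 0.152) and with no filter on low counts (0.25, adjusted p = 0.0542). PSMB8 was the only member called higher in all 4 comparisons.

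PSMB9 stood at 19.2 and 21.4 CPM in HepG2 NC cytoplasm and at 67.9 and 55.0 CPM with siPANAD, a rise of 1.59 ± 0.14 (adjusted p = 1.2e-09). In HepG2 nuclei it went from 4.38 and 5.31 CPM to 13.5 and 14.8 CPM, with a log2 fold change of 1.54 ± 0.17 (adjusted p = 3.6e-08). SNU-449 began much higher, at 90.7 and 93.7 CPM in NC cytoplasm, and the siPANAD libraries at 105 and 110 CPM gave a difference of 0.22 ± 0.10 that missed the threshold (adjusted p = 0.0852). In SNU-449 nuclei, NC at 19.1 and 15.4 CPM and siPANAD at 17.7 and 16.1 CPM overlapped, and the difference was -0.03 ± 0.12.

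PSMB10 went opposite ways in the lines. HepG2 cytoplasm had 11.8 and 10.6 CPM with NC and 32.9 and 31.3 CPM with siPANAD, and HepG2 nuclei had 2.81 and 4.28 CPM with NC and 10.1 and 8.58 CPM with siPANAD. Its log2 fold changes in HepG2 were 1.53 ± 0.17 (adjusted p = 3.1e-08) and 1.39 ± 0.19 (adjusted p = 1.5e-06). SNU-449 cytoplasm had 63.4 and 63.2 CPM with NC and 46.3 and 38.2 CPM with siPANAD, a fall with a log2 fold change of -0.59 ± 0.11 (adjusted p = 5.1e-05). SNU-449 nuclei had 14.3 and 14.2 CPM with NC and 10.8 CPM in both siPANAD libraries (-0.40 ± 0.13, adjusted p = 0.0102), a call lost without either siPANAD library (adjusted p = 0.0545 and 0.0614). Without the second NC library of HepG2 cytoplasm, PSMB8, PSMB9 and PSMB10 still rose there, by 1.2, 1.68 and 1.45. PSMB11, the thymus-restricted beta subunit, had 0 to 2 counts per library and was not tested.

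The difference between the lines was itself tested in 1 fit over all 16 libraries. The cytoplasmic effect was lower in SNU-449 than in HepG2 by a log2 difference of -2.15 for PSMB10, -1.41 for PSMB9 and -0.79 for PSMB8, and the nuclear effect by -1.80, -1.59 and -0.75. All 6 differences passed the threshold under each of the 21 alternatives to that fit, and without the second NC library of HepG2 cytoplasm the cytoplasmic ones were -2.06, -1.49 and -0.82. The NC levels of PSMB10 and PSMB9 also differed between the lines, with SNU-449 cytoplasm above HepG2 cytoplasm by 2.49 and 2.16 on the log2 scale.

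Some of these counts overlap other genes. PSMB10 shares 58.3% of its coding bases on the same strand with the gene AC040162.1, which had 7 to 210 counts, so reads of both may have been divided or discarded by the counting. PSMB8 shares 20.6% of its exonic bases with the antisense gene PSMB8-AS1, at 7 to 110 counts against 455 to 2342 for PSMB8. The strand setting of the counting is not given in the sources used here, so sense and antisense reads at such places cannot be told apart.

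**Figure D2:**
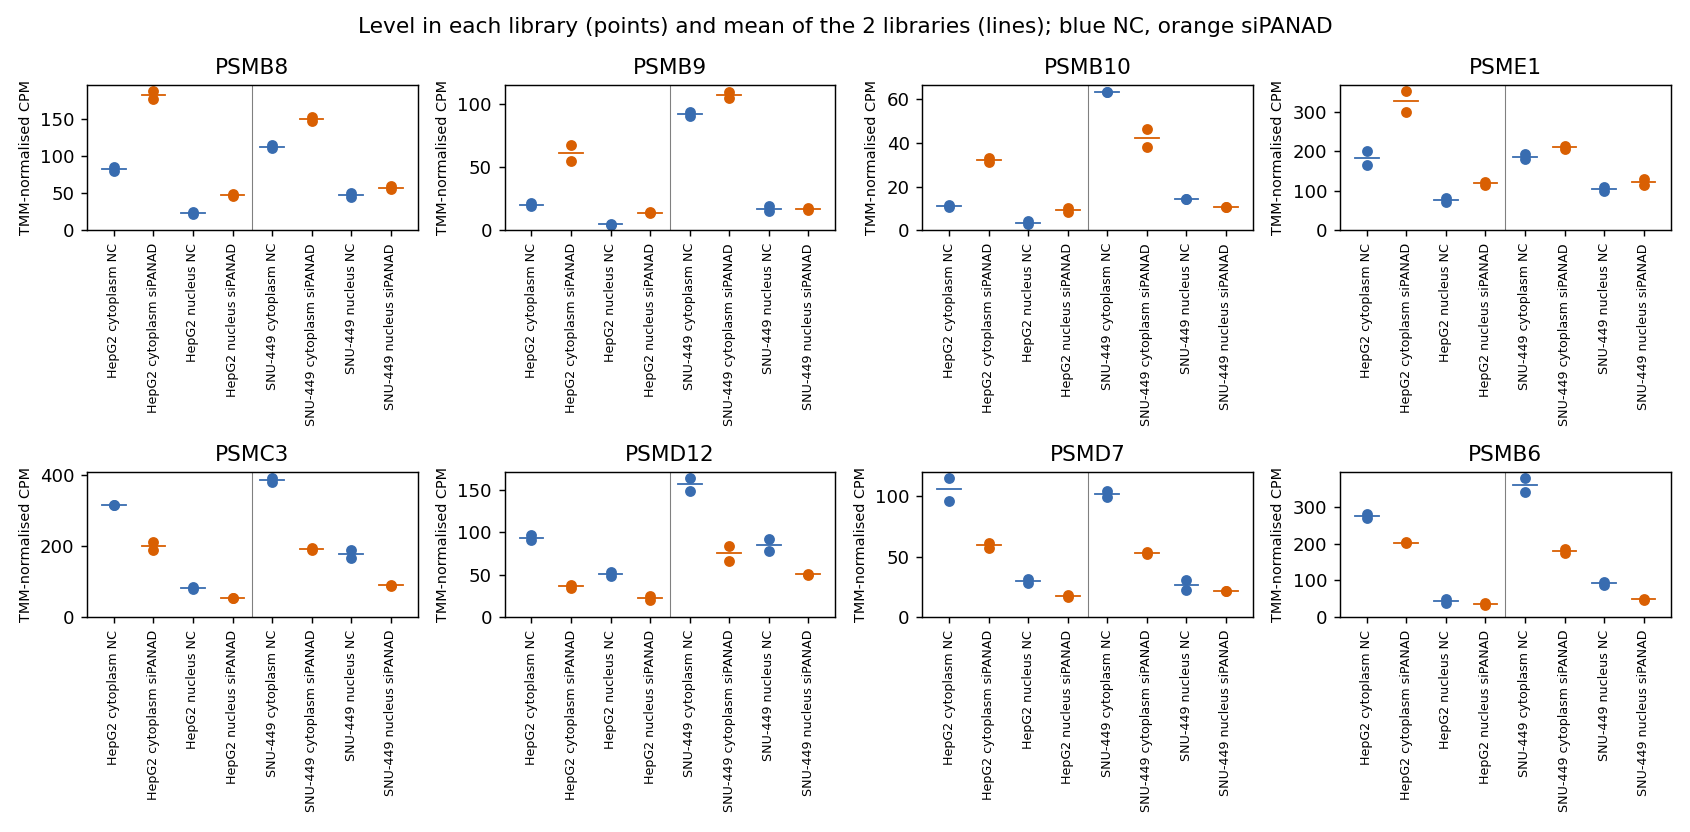
TMM-scaled CPM (y axis) of 8 proteasome genes in the 8 groups (x axis); each point is 1 library, lines are means of 2 libraries, blue is NC and orange siPANAD. In HepG2 the siPANAD points of PSMB8, PSMB9 and PSMB10 lie above the NC points in both fractions, while in SNU-449 PSMB10 lies below them.

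Promoters of these genes were searched for short motifs of factors known to act on proteasome genes, in RefSeq windows from 250 bases before to 50 bases after the gene's start (GRCh38.p14), available for 43 of the 49 members. A gene with more than 1 window was counted as matched if any of them held a match. A short form of the interferon-stimulated response element bound by IRF family factors, GAAA followed after any 2 bases by a further GAAA, was found on either strand in 7 members (16.3%), against 4.38% of 27305 genes. The 7 stretches of 30 bases are shown because PSMB8, PSMB10, PSME1 and PSME2, which are known to respond to interferon, are among them, and capitals mark the match on the gene's own strand.
PSMB8 chr6:32844032-32844061 (minus strand, match from base -4): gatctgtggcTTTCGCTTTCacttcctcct
PSMB10 chr16:67936852-67936881 (minus strand, match from base -21): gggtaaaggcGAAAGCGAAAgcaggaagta
PSME1 chr14:24136189-24136218 (plus strand, match from base 6): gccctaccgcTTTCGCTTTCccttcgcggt
PSME2 chr14:24146619-24146648 (minus strand, match from base -28): cctggggagtGAAAGCGAAAgcccgggcga
PSMA4 chr15:78540155-78540184 (plus strand, match from base -240): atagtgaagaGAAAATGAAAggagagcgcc
PSMB4 chr1:151399495-151399524 (plus strand, match from base -68): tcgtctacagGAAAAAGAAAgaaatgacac
PSMG4 chr6:3258904-3258933 (plus strand, match from base -33): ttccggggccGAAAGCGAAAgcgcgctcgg

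PSMB8, PSMB10 and PSME1 of these 7 rose in HepG2 in both fractions and PSME2 was called higher in HepG2 nuclei. In SNU-449, PSMB8 rose in both fractions but PSMB10 fell in both. PSME1 was called higher in SNU-449 nuclei only, and PSME2 was called lower in cytoplasm and higher in nuclei. Those PSME1 and PSME2 calls in SNU-449, and the nuclear ones of PSMB8 and PSMB10, were lost under some alternatives. PSMA4 and PSMB4 were not called in HepG2 in either fraction, and PSMG4 was at -0.43 ± 0.14 in HepG2 nuclei (adjusted p = 0.0173), lost without the second NC (-0.31, adjusted p = 0.151) or the first siPANAD library (-0.37, adjusted p = 0.13). The window of PSMB9, with the largest rise in HepG2, holds no match. None of the 7 matches overlapped another motif searched. TGANNNNGC is a loose form of the core of the element bound by NFE2L1 with small MAF partners, with its middle bases left free. It occurred in 67.4% of the 43 members against 47.1% of the 27305 genes, and a match need not be such an element. CCAAT occurred in 51.2% against 39.7%, and TTCNNNGAA, the STAT motif, in 18.6% against 9.38%. Matches are descriptions of these letters, and binding was not measured.

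Of the 4 activators, 1 rose and 2 fell in HepG2 cytoplasm, 2 rose and 2 fell in HepG2 nuclei, 1 fell in SNU-449 cytoplasm, and 2 rose and 1 fell in SNU-449 nuclei. Over all tested genes, 47.9%, 45.6%, 39.7% and 46.0% were called in these comparisons. PSME1, which with PSME2 forms the interferon-inducible PA28 activator, stood at 164 and 200 CPM in HepG2 NC cytoplasm and 353 and 299 CPM with siPANAD, a rise of 0.84 ± 0.14 (adjusted p = 1.4e-05) that was 0.99 without the second NC library. In HepG2 nuclei it rose by 0.65 ± 0.14 (adjusted p = 0.00042), from 70.6 and 81.5 CPM to 115 and 123 CPM. In SNU-449 cytoplasm PSME1 was at 0.17 ± 0.09 (adjusted p = 0.141). In SNU-449 nuclei it was called higher, at 0.23 ± 0.09 (adjusted p = 0.0432), a call lost under 6 alternatives and at 0.13 (adjusted p = 0.406) without the first siPANAD nucleus library, 0.15 (adjusted p = 0.287) without the second NC nucleus library, and adjusted p = 0.0573 and 0.0571 without the first and the second siPANAD cytoplasm library. The line difference of the PSME1 effect passed the threshold in cytoplasm (-0.71) but not in nuclei (-0.44, adjusted p = 0.0641). Its partner PSME2 rose in HepG2 nuclei from 147 and 162 CPM to 204 and 228 CPM (0.48 ± 0.14), a call lost without the first NC library (0.40, adjusted p = 0.0571) or the second siPANAD library (0.39, adjusted p = 0.0878). In SNU-449 PSME2 was at -0.32 ± 0.09 in cytoplasm and 0.26 ± 0.09 in nuclei, and these calls too were lost without single libraries (adjusted p = 0.0512 without the first NC and 0.0689 without the second siPANAD cytoplasm library, and 0.0665, 0.0775 and 0.064 without the second NC, the first siPANAD and the second siPANAD nucleus library).

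PSME3, which forms the nuclear PA28 gamma activator, and PSME4, which encodes PA200, fell in HepG2. PSME3 stood at 330 and 350 CPM in HepG2 NC cytoplasm and 202 and 193 CPM with siPANAD (-0.78 ± 0.13, adjusted p = 1.1e-05), and it fell by 0.58 on the log2 scale in HepG2 nuclei. In SNU-449 PSME3 was at -0.18 ± 0.09 in cytoplasm (adjusted p = 0.121) and was called lower in nuclei (-0.30 ± 0.10, adjusted p = 0.00865), a call lost without the second siPANAD library (-0.17, adjusted p = 0.259). PSME4 stood at 110 and 119 CPM against 61.1 and 74.2 CPM in HepG2 cytoplasm (-0.76 ± 0.13, adjusted p = 3.1e-05), and at 152 and 132 CPM against 77.1 and 75.1 CPM in nuclei (-0.90 ± 0.13, adjusted p = 3.7e-06). In SNU-449, PSME4 was far lower, at 9.46 and 7.02 CPM in NC cytoplasm, and its differences of 0.11 ± 0.17 and -0.23 ± 0.12 missed the threshold. Without the second NC library of HepG2 cytoplasm, PSME3 and PSME4 fell there by 0.74 and 0.71. The line difference of the PSME4 effect was 0.84 in cytoplasm and 0.65 in nuclei, both past the threshold. PSME4 was also the member that differed most between the lines without siPANAD, with SNU-449 NC cytoplasm below HepG2 by a log2 difference of -3.83 ± 0.15.

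Among the 11 non-ATPase subunits of the 19S cap, 2 rose and 5 fell in HepG2 cytoplasm, none rose and 7 fell in HepG2 nuclei, 1 rose and 7 fell in SNU-449 cytoplasm, and none rose and 7 fell in SNU-449 nuclei. The shares of all tested genes called were 47.9%, 45.6%, 39.7% and 46.0%, in that order. PSMD12, a scaffold subunit of the 19S lid, fell most. It stood at 90.6 and 96.8 CPM in HepG2 NC cytoplasm and 38.0 and 34.4 CPM with siPANAD, and at 52.9 and 48.1 CPM against 24.8 and 19.9 CPM in HepG2 nuclei. In SNU-449 it stood at 164 and 149 CPM against 66.7 and 83.6 CPM in cytoplasm and at 91.5 and 78.0 CPM against 49.5 and 51.3 CPM in nuclei. In each of the 4 comparisons both siPANAD libraries lay below both NC libraries. The log2 fold changes were -1.37 ± 0.13 (adjusted p = 5.6e-09), -1.17 ± 0.13 (adjusted p = 1e-07), -1.06 ± 0.11 (adjusted p = 5.4e-10) and -0.75 ± 0.11 (adjusted p = 5e-07), and the value in HepG2 cytoplasm was -1.32 without its second NC library.

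PSMD7, the lid subunit that pairs with the deubiquitinase PSMD14, stood at 96.1 and 115 CPM in HepG2 NC cytoplasm and 56.7 and 61.5 CPM with siPANAD (-0.84 ± 0.13, adjusted p = 7.5e-06), or -0.70 without the second of these NC libraries. In SNU-449 cytoplasm it stood at 104 and 99.1 CPM against 53.5 and 52.0 CPM (-0.94 ± 0.11, adjusted p = 1.1e-08). PSMD7 shares 30.7% of its exonic bases with AC009120.2 on the opposite strand, so its counts are uncertain. PSMD7 also fell in HepG2 nuclei (-0.75 ± 0.14), but the fall in SNU-449 nuclei (-0.33 ± 0.12, adjusted p = 0.0221) was lost under 5 alternatives and came to -0.10 (adjusted p = 0.562) without the second NC library. It was likewise lost without either siPANAD library (adjusted p = 0.0871 and 0.0931), under library totals (-0.27, adjusted p = 0.0735) and by DESeq2 (adjusted p = 0.0562). PSMD1, the base scaffold that receives ubiquitin receptors, fell in all 4 comparisons by log2 fold changes of -0.40, -0.55, -0.67 and -0.36. Its call was lost in HepG2 cytoplasm without the first siPANAD library (-0.39, adjusted p = 0.0851) and in SNU-449 nuclei without the second (-0.34, adjusted p = 0.0579).

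PSMD2, the other large scaffold of the base, fell in HepG2 from 532 and 584 CPM to 344 and 353 CPM in cytoplasm (-0.68 ± 0.13, adjusted p = 8.2e-05), or -0.61 without the second NC library. In SNU-449 cytoplasm it stood at 736 and 821 CPM with NC and 860 and 834 CPM with siPANAD (0.12 ± 0.09), and the line difference of 0.76 in cytoplasm passed the threshold under all 21 alternatives. PSMD8 fell in HepG2 nuclei (-0.54 ± 0.14) and in both fractions of SNU-449 (-0.41 and -0.38), and PSMD11 fell in HepG2 in both fractions (-0.60 and -0.47) and in SNU-449 cytoplasm (-0.36, or -0.27 with an adjusted p of 0.109 without the second siPANAD library).

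Of the 6 ATPases, PSMC3 was the member that fell in every comparison. PSMC3 stood at 315 CPM in both HepG2 NC cytoplasm libraries and at 190 and 210 CPM with siPANAD, and at 379 and 392 CPM against 189 and 194 CPM in SNU-449 cytoplasm. In nuclei it stood at 78.8 and 84.9 CPM against 54.5 and 52.8 CPM in HepG2 and at 189 and 166 CPM against 91.9 and 86.5 CPM in SNU-449. Neither line showed any overlap between treatments. The log2 fold changes were -0.66 ± 0.12 and -0.61 ± 0.13 in HepG2 (adjusted p = 8.8e-05 and 0.00031) and -1.01 ± 0.09 and -0.99 ± 0.09 in SNU-449 (adjusted p = 2.1e-11 and 5.9e-11). Leaving out the second NC library of HepG2 cytoplasm left PSMC3 there at -0.66. PSMC6 rose in both cytoplasms (0.45 ± 0.14 and 0.41 ± 0.12), but the HepG2 call was lost without the first NC library (adjusted p = 0.147), without either siPANAD library (adjusted p = 0.108 and 0.0517) and under library totals (adjusted p = 0.0584) and the SNU-449 call without the first NC library (0.33, adjusted p = 0.0722) and without the second siPANAD library (0.21, adjusted p = 0.284). PSMC1 shares 75.8% of its exonic bases with NRDE2 on the opposite strand, so its counts are uncertain.

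None of the 7 constitutive beta subunits was called higher after siPANAD with all libraries, although PSMB7 was called higher in HepG2 cytoplasm without its second NC library (0.38, adjusted p = 0.0252, against 0.28 and an adjusted p of 0.0757 with it). Of these 7, 1 fell in HepG2 cytoplasm, 2 in HepG2 nuclei, 3 in SNU-449 cytoplasm and 5 in SNU-449 nuclei. Over all tested genes, 24.2%, 23.6%, 20.1% and 23.9% fell, in the same order. PSMB6, which carries the caspase-like site that PSMB9 replaces, stood at 340 and 379 CPM in SNU-449 NC cytoplasm and 174 and 185 CPM with siPANAD (-1.0 ± 0.09, adjusted p = 2.5e-11), and at 94.9 and 89.0 CPM against 49.3 and 47.4 CPM in nuclei (-0.93 ± 0.09, adjusted p = 4.9e-10). In HepG2 cytoplasm it stood at 281 and 269 CPM against 202 and 204 CPM (-0.44 ± 0.13, adjusted p = 0.00821, or -0.47 without the second NC library), and the line difference was -0.60 in cytoplasm and -0.64 in nuclei. Both differences missed the threshold without single libraries, in cytoplasm without the second NC (adjusted p = 0.0717) or the first siPANAD library of SNU-449 (adjusted p = 0.0565), in nuclei without the first NC (adjusted p = 0.0679) or the first siPANAD library of HepG2 (adjusted p = 0.0549). PSMB5, the chymotrypsin-like subunit that PSMB8 replaces, fell in SNU-449 nuclei, from 225 and 201 CPM to 156 and 139 CPM (-0.53 ± 0.10, adjusted p = 2.6e-05), and was at -0.09 ± 0.14 in HepG2 cytoplasm. Its calls in SNU-449 cytoplasm (-0.33 ± 0.09) and HepG2 nuclei (-0.41 ± 0.14) were lost without single libraries, the former without the second NC (-0.22, adjusted p = 0.169) or the first siPANAD library (-0.23, adjusted p = 0.182), the latter without the second NC (-0.27, adjusted p = 0.184), the first siPANAD (-0.48, adjusted p = 0.0555) or the second siPANAD library (-0.36, adjusted p = 0.155). PSMB7, the trypsin-like subunit that PSMB10 replaces, fell in SNU-449 nuclei, from 195 and 181 CPM to 127 and 126 CPM (-0.57 ± 0.09, adjusted p = 3.5e-06), and was at -0.09 ± 0.09 in SNU-449 cytoplasm. In SNU-449 nuclei PSMB2 fell as well, from 62.9 and 54.8 CPM to 43.1 and 40.6 CPM (-0.49 ± 0.10). PSMB2 was also called lower in HepG2 nuclei, at -0.72, the lowest value of the 7 there.

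In the alpha ring, none of the 7 tested genes was called in HepG2 cytoplasm with all libraries, though PSMA3 was called higher without the second NC library (0.48, adjusted p = 0.00588, against 0.28 and an adjusted p of 0.0997 with it), and in HepG2 nuclei PSMA2 and PSMA7 fell. In SNU-449 cytoplasm 2 rose and 1 fell, and in SNU-449 nuclei 4 fell. The shares of all tested genes called were 47.9% and 45.6% in HepG2 cytoplasm and nuclei, and 39.7% and 46.0% in those of SNU-449. PSMA7, with the highest mean count of the members over the 16 libraries, stood at 477 and 445 CPM in SNU-449 NC nuclei and 276 and 261 CPM with siPANAD (-0.78 ± 0.09, adjusted p = 9.6e-09), while cytoplasm stood at 1050 and 1150 CPM against 996 and 1060 CPM (-0.10 ± 0.09). In HepG2 nuclei PSMA7 stood at 295 and 432 CPM against 257 and 225 CPM, and that call (-0.59 ± 0.15) was lost without the second NC library (-0.31, adjusted p = 0.111) and without the second siPANAD library (-0.51, adjusted p = 0.0526). PSMA5, PSMA6 and PSMB1 were the tested members called in none of the 4 comparisons. PSMA8, the testis-restricted alpha subunit, had 0 or 1 counts per library and was not tested.

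PSMA2 encodes an alpha subunit and lies beside the siRNA target, at chr7:42916857-42932223 on the minus strand of hg38. All of its coding bases are shared on the same strand with a readthrough transcript annotated as ENSG00000256646, which had 0 to 3 counts per library, so reads that could belong to either may have been left uncounted and the counts of PSMA2 are uncertain. In HepG2 cytoplasm PSMA2 had 4 and 9 counts with NC and 2 and 4 with siPANAD, and in SNU-449 cytoplasm 2 and 0 counts with NC and 0 in both siPANAD libraries. Such counts cannot show a difference at this depth. HepG2 nuclei had 67 and 72 counts with NC and 52 and 33 with siPANAD, and SNU-449 nuclei had 68 and 92 against 63 and 53. The depth-scaled ratio of siPANAD to NC was 0.542 in HepG2 nuclei, with an exact 95% interval of 0.409 to 0.715, and 0.721 in SNU-449 nuclei, with an interval of 0.562 to 0.921. These intervals cover counting error only. The fit gave -0.89 ± 0.26 in HepG2 nuclei (adjusted p = 0.00716), which was lost by DESeq2 (-0.91, adjusted p = 0.149) and without the second siPANAD library (-0.67, adjusted p = 0.13). In SNU-449 nuclei it gave -0.47 ± 0.23 (adjusted p = 0.0999), below the threshold.

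On a scale per length, every other tested member lay above PSMA2. Per kilobase of the longest coding transcript, HepG2 NC cytoplasm held PSMA2 at 0.22 ± 0.0357 CPM, while the next lowest tested members were PSMC1 (6.88 ± 0.986), PSMA6 (7.43) and PSMD9 (7.45). PSMA7 led with 915 ± 19.2 CPM per kilobase, followed by PSMB3 (420), PSMB4 (375) and PSMB5 (356). The low members PSMA6 and PSMD9 share 70.4% and 67.5% of their coding bases with other genes on the same strand, and whether this lowered their counts was not tested. Core subunits are known to be built into the particle in equal numbers.

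**Figure D3:**
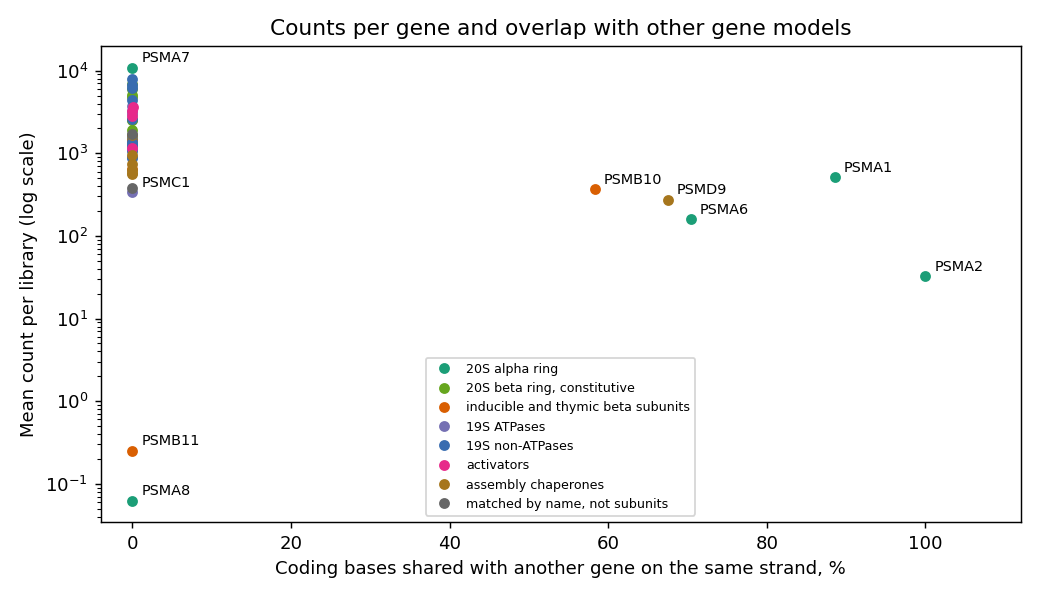
Mean count per library of each member (y axis, log scale) against the percentage of its coding bases shared with another gene on the same strand (x axis), coloured by role. PSMA2, with all coding bases shared and a mean of 32.6 counts, lies lowest among the tested members, and PSMA6, PSMD9 and PSMA1 are other members with a high shared percentage.

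Of the 7 assembly chaperones, 1 rose and 1 fell in HepG2 cytoplasm, 4 fell in HepG2 nuclei, 2 rose and 2 fell in SNU-449 cytoplasm, and 2 fell in SNU-449 nuclei. Over all tested genes, 47.9%, 45.6%, 39.7% and 46.0% were called in these comparisons. PSMG2, which with PSMG1 guides the assembly of the alpha ring, stood at 37.8 and 43.7 CPM in HepG2 NC cytoplasm and 72.1 and 66.9 CPM with siPANAD (0.76 ± 0.13, adjusted p = 2.1e-05, or 0.88 without the second NC library), while HepG2 nuclei showed no difference past the threshold (-0.03 ± 0.13). In SNU-449 cytoplasm PSMG2 was called higher, from 31.8 and 28.4 CPM to 37.2 and 36.0 CPM (0.28 ± 0.12, adjusted p = 0.0479), a call lost under 9 of 13 alternatives, among them those without the second NC library (0.23, adjusted p = 0.21) and without either siPANAD library (adjusted p = 0.117 and 0.0903). In SNU-449 nuclei it fell from 29.9 and 28.6 CPM to 19.8 and 19 CPM (-0.59 ± 0.11, adjusted p = 4.9e-05). PSMD5, a chaperone of the 19S base, fell in SNU-449 in both fractions (-0.60 ± 0.11 and -0.50 ± 0.11), and PSMD10, known as the oncoprotein gankyrin, rose in SNU-449 cytoplasm from 59.9 and 56.5 CPM to 89.8 and 94.2 CPM (0.66 ± 0.10, adjusted p = 2.4e-06). PSMG1 fell in HepG2 nuclei (-0.56 ± 0.13). PSMC3IP, a recombination factor matched by name, fell in both cytoplasms (-0.90 ± 0.16 and -1.25 ± 0.17), and PSME3IP1 rose in HepG2 cytoplasm (0.50 ± 0.13). Without the second NC library of HepG2 cytoplasm, these HepG2 values were -0.99 for PSMC3IP and 0.39 for PSME3IP1. PSMC3IP shares 29.9% of its exonic bases with MLX on the opposite strand, so its counts are uncertain.

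The difference between the nuclear and the cytoplasmic effect was tested as well. It passed the threshold for 2 members in HepG2, both lower in nuclei, where 9.89% of all genes were called (4.91% higher, 4.98% lower), and for 11 members in SNU-449, 3 higher in nuclei and 8 lower, where 20.2% of all genes were called (9.69% higher, 10.5% lower). In SNU-449 the difference was -0.87 for PSMG2, -0.78 for PSMD10 and -0.68 for PSMA7, and in the other direction 0.58 for PSME2, all 4 past the threshold under each alternative. PSMC3IP (0.82) was lost without the second NC cytoplasm library (0.62, adjusted p = 0.0654), and PSMD7 (0.62) without the first NC nucleus library (0.42, adjusted p = 0.0659). In HepG2, PSMG2 (-0.79) was lost under library totals (-0.51, adjusted p = 0.0771), without the first siPANAD cytoplasm library (-0.66, adjusted p = 0.0948) and without the second siPANAD nucleus library (-0.73, adjusted p = 0.0591), and PSMB2 (-0.56) was lost under 10 of 13 alternatives. With library totals as the only scaling, HepG2 had 2 members higher and 0 lower, and the median of all genes moved to 0.27. Without the second NC cytoplasm library, 1 member was higher and 3 were lower in HepG2. The number lower in HepG2 ran from 0 to 4 when single libraries were left out, with 4 without the first NC cytoplasm library and 0 without the first siPANAD cytoplasm or the second siPANAD nucleus library.

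Without siPANAD, most proteasome RNAs were lower in the nucleus than in the cytoplasm, relative to the typical gene. These counts do not give the amount of RNA in each fraction. In NC libraries of HepG2, 38 of 47 members were lower in the nucleus and 4 were higher, and in SNU-449 35 were lower and 10 higher, where 77.1% and 79.8% of all tested genes were called. Of all genes, 39.4% were higher and 37.7% lower in HepG2 nuclei, and 43.5% higher and 36.2% lower in SNU-449 nuclei. The members' median log2 ratio of nucleus to cytoplasm was -1.26 in HepG2 (0.04 over all genes) and -1.10 in SNU-449 (0.22 over all genes). Scaling by library totals alone moved the median of all genes to 0.66 and 1.06 and the members to 9 higher and 32 lower in HepG2 and 15 higher and 25 lower in SNU-449. All 7 constitutive beta subunits were lower in the nucleus in both lines, with medians of -2.46 and -1.97. PSMB7 was at -2.75 and -2.16, PSMB3 at -2.57 and -2.65, PSMB6 at -2.63 and -1.97 and PSMB5 at -2.46 and -2.12 in HepG2 and SNU-449. Without the second NC library of HepG2 cytoplasm, 5 members were higher and 37 lower in HepG2 nuclei, and PSMB7, PSMB3, PSMB6 and PSMB5 were at -2.60, -2.62, -2.61 and -2.56.

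Some members were higher in nuclei than in cytoplasm relative to the typical gene. PSMA1 was at 0.63 in HepG2 and 0.80 in SNU-449, and PSME3IP1 at 1.12 and 0.75. PSME4 was at 1.86 in SNU-449, and PSMC2, an ATPase, was at -0.99 in HepG2 but 0.91 in SNU-449. Without that library PSMA1, PSME3IP1 and PSMC2 were at 0.83, 1.06 and -0.74 in HepG2. PSMA2 had 9.91 times the depth-scaled count in HepG2 nuclei as in cytoplasm (exact 95% interval 5.61 to 19.1) and 47.5 times in SNU-449 (12.9 to 395). The SNU-449 ratio rests on 160 nuclear counts against 2 cytoplasmic counts, and both intervals cover counting error only. All coding bases of PSMA2 are shared with a same-strand transcript, so its counts and these ratios are uncertain. PSMA1 also shares 88.6% of its coding bases on the same strand with another gene, and the part of this overlap in its ratio was not tested.

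**Figure D4:**
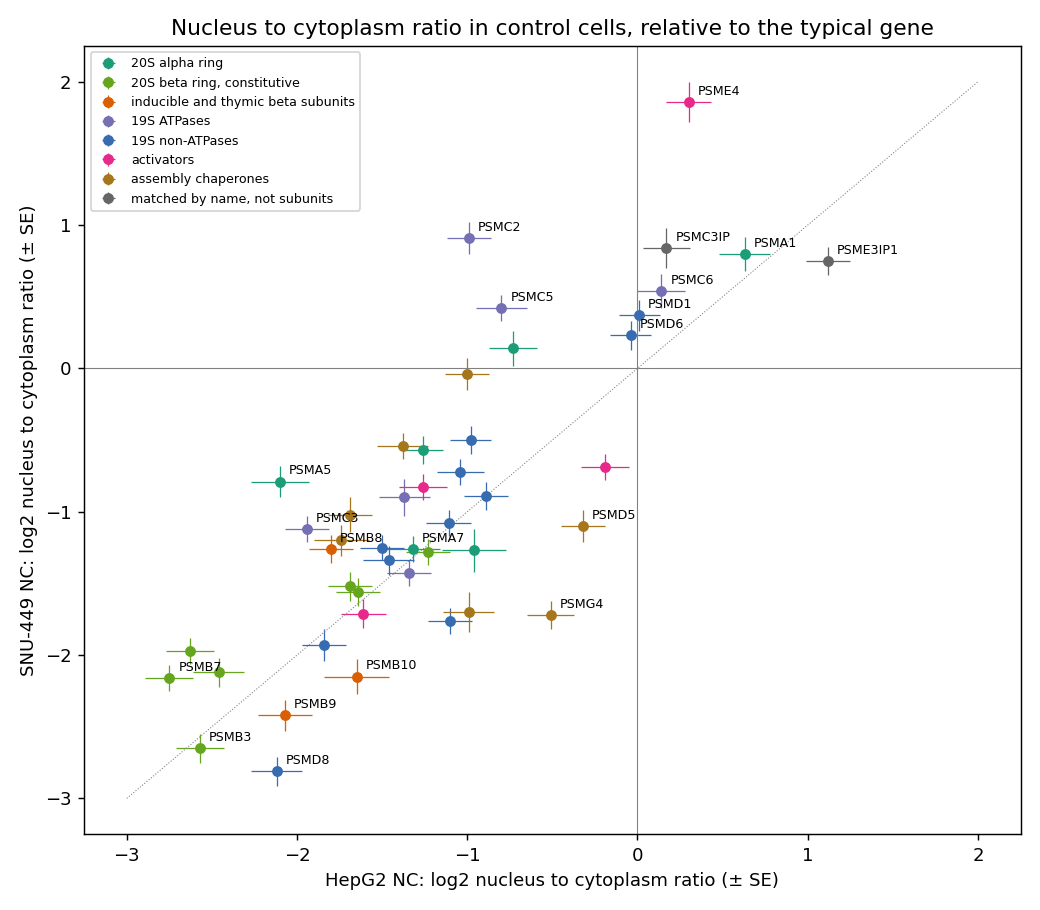
Log2 ratio of nucleus to cytoplasm in NC libraries for the tested members except PSMA2, HepG2 on the x axis and SNU-449 on the y axis, coloured by role; bars are standard errors and the dotted line marks equal ratios. The constitutive beta subunits lie at the lower left, and PSMC2 lies left of 0 in HepG2 and above 0 in SNU-449.

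The lines differed in the NC cytoplasm for 38 members (24 higher and 14 lower in SNU-449), against 71.2% of all genes called (34.3% higher, 36.9% lower). RLE size factors and DESeq2 each gave 26 higher and 9 lower, and leaving out the second HepG2 NC library gave 23 higher and 11 lower. The larger differences beside those of PSME4, PSMB10 and PSMB9 were PSMD3 (1.97), PSMD5 (1.78), PSMB7 (1.58) and PSMD8 (1.43), higher in SNU-449, and PSMA5 (-1.69), lower. Per kilobase of the longest coding transcript, PSMA7 was the highest member in SNU-449 NC cytoplasm at 1100 ± 71.0 CPM, followed by PSMB3 (1030 ± 65.9), PSMB7 (857) and PSMB4 (854), and the 2 highest did not differ beyond their spread. PSMB3 led when lengths came from the union of exons (678 against 629 for PSMA7). PSME4 was among the lowest at 1.16 ± 0.243. Across the 47 tested members, the effect of siPANAD in cytoplasm differed between the lines for 14 (4 higher and 10 lower in SNU-449), against 18.2% of all genes (9.17% higher, 8.98% lower), and in nuclei for 8 (2 higher and 6 lower), against 20.9% (11.3% higher, 9.61% lower). Library totals alone turned the cytoplasmic split to 7 higher and 6 lower. Leaving out 1 library took the cytoplasmic number lower to 6 without the first HepG2 siPANAD library, 5 without the first and 6 without the second SNU-449 siPANAD library. The number higher came to 2 without the second HepG2 siPANAD or the first SNU-449 NC library, and in nuclei to 1 without the second HepG2 siPANAD or the first SNU-449 siPANAD library.

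The genes that work with the proteasome were read from a list of 30. In HepG2 cytoplasm 6 rose and 15 fell, in HepG2 nuclei 3 and 14, in SNU-449 cytoplasm 5 and 8, and in SNU-449 nuclei 5 and 12, where 47.9%, 45.6%, 39.7% and 46.0% of all tested genes were called. NFE2L1, the factor that raises proteasome genes, was at 338 ± 38.2 CPM in HepG2 NC cytoplasm and 132 ± 2.83 CPM with siPANAD (-1.36 in log2, or -1.47 without the second NC library), and at 431 ± 53.7 against 204 ± 8.49 CPM in SNU-449 cytoplasm (-1.08). It also fell in HepG2 nuclei (-0.62), and was at -0.09 in SNU-449 nuclei, below the threshold. Its small MAF partner MAFF fell in all 4 comparisons (-1.57, -1.07, -0.94 and -0.84), while the other small MAF genes were mixed. MAFG fell in HepG2 (-1.59 and -0.66) and was called higher in SNU-449 cytoplasm (0.31), a call lost without the first NC (0.24, adjusted p = 0.103) or the first siPANAD library (0.27, adjusted p = 0.099). MAFK fell in HepG2 cytoplasm (-1.57) and rose in SNU-449 nuclei (0.76, adjusted p = 2.5e-08), and its call of -0.29 in SNU-449 cytoplasm was lost without the second NC library (-0.19, adjusted p = 0.225) or either siPANAD library (adjusted p = 0.169 and 0.0506). PAAF1, an inhibitor of 26S assembly, rose in all 4 (1.21, 0.94, 0.76 and 0.87), from 27.0 ± 0.283 to 45.8 ± 1.70 CPM in SNU-449 cytoplasm. POMP, the chaperone of the beta ring, fell in SNU-449 nuclei (-0.60) and was not called in the other 3 comparisons of siPANAD with NC.

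The MHC class I genes fed by the immunoproteasome were read from a list of 14: 7 rose and 3 fell in HepG2 cytoplasm, 7 and 2 in HepG2 nuclei, 3 and 5 in SNU-449 cytoplasm and 3 and 3 in SNU-449 nuclei, against the same shares of all genes called. IRF1, an interferon-induced regulator of PSMB8, PSMB9 and PSMB10, was at 19.2 ± 0.0707 CPM in HepG2 NC cytoplasm and 49.3 ± 1.98 CPM with siPANAD (1.36 in log2), and in SNU-449 at 124 ± 0.707 against 85.3 ± 3.11 CPM (-0.54). NLRC5, the class I transactivator, rose in HepG2 (0.99 and 1.07) and was at -0.21 and -0.12 in SNU-449, below the threshold. The line differences of these 2 genes passed the threshold, at -1.94 and -2.01 for IRF1 and -1.23 and -1.21 for NLRC5 in cytoplasm and nuclei. B2M, the light chain of class I, rose in the cytoplasm of both lines (1.02 in HepG2 and 0.58 in SNU-449).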

How the data were processed

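RNA of cytoplasm and nucleus from HepG2 and SNU-449 cells was sequenced as directional libraries in 16 samples. Raw gene counts were deposited by the authors in a table for each line, and reads were trimmed with Trim Galore 0.6.4 and aligned with HISAT2 2.2.1 to hg38, per the submitters' processing notes. The counting program, the annotation release and the strand setting are not given in the sources used here. Symbols and overlaps came from GENCODE 29, another release than that of the files, and 61444 gene IDs matched a symbol. The 37 mitochondrial genes held 0 counts, and the ANK2 entry was broken and left out.

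Groups came from the labels. Within each line, edgeR 4.0.16 (R 4.3.3) fitted all 8 libraries with TMM scaling, a filter on low counts with a minimum of 10 and robust quasi-likelihood tests, two-sided, with Benjamini-Hochberg adjustment over all genes (17499 in HepG2, 17895 in SNU-449). A fit of 16 libraries and 20459 genes tested differences between lines. Alternatives were DESeq2 1.42.0, other size factors, library totals, no filter, a replicate block and leaving out each library. With 2 libraries a group, p-values measure only the spread between these libraries. Genes named were PSMA2, the catalytic subunits and activators in every comparison, and up to 4 called members with the largest change in each direction, with a few further members named after their values were seen. The members and lists were chosen with earlier results of these data known. The fits were tested on simulated data in which few genes changed and the fractions did not differ. That setting is unlike the data here, so it does not test the scaling or the number of calls.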

Additional observations from a re-analysis of the deposited data

Results flagged for a closer look

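These members had effects of siPANAD that differed between the lines or between the fractions in a test of the difference itself, and the cause of each was not tested. In the comparison of cytoplasmic effects, SNU-449 minus HepG2, the log2 difference was -2.15 for PSMB10, -1.41 for PSMB9, -0.79 for PSMB8, -0.76 for PSMC1, -0.71 for PSME1, -0.60 for PSMB6, -0.52 for PSMG2, and -0.46 each for PSME2, PSMA4 and PSMD4. It was 0.56 for PSME3, 0.57 for PSMD14, 0.76 for PSMD2 and 0.84 for PSME4. Those of PSMB10, PSMB9, PSMB8, PSMC1, PSME1, PSMD2 and PSME4 held under all 21 alternatives, and the other 7 did not. In the comparison of nuclear effects, the difference was -1.80 for PSMB10, -1.59 for PSMB9, -0.75 for PSMB8, -0.64 for PSMB6, -0.61 for PSMB7 and -0.58 for PSMG2, and 0.53 for PSMD2 and 0.65 for PSME4. Those of PSMB10, PSMB9, PSMB8 and PSME4 held under all 21.

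The nuclear effect minus the cytoplasmic effect in SNU-449 was -0.87 for PSMG2, -0.78 for PSMD10, -0.69 for PSMA1, -0.68 for PSMA7, -0.63 for PSMD14, -0.62 for PSMA3, -0.48 for PSMB7 and -0.37 for PSMB2. It was 0.58 for PSME2, 0.62 for PSMD7 and 0.82 for PSMC3IP, and 6 of these 11 held under all 13 alternatives. In HepG2 it was -0.79 for PSMG2 and -0.56 for PSMB2, and neither held under all 13.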

How the results depend on the processing

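With library totals as the only scaling, members higher in HepG2 nuclei than cytoplasm numbered 9, the HepG2 difference between fractions gave 2 higher and 0 lower, the line difference of cytoplasmic effects 7 higher and 6 lower, and that of nuclear effects 10 lower. These signs then turned: POMP -0.07 and PSME2 -0.01 in HepG2 cytoplasm, PSMB9 0.02 in SNU-449 nuclei, the nucleus to cytoplasm ratios of PSMG4 0.12, PSMD5 0.30 and NFE2L1 0.13 in HepG2, and of PSMA5 0.06, PSMG3 0.31, PSMD13 0.13, PSME1 0.02, PSME2 0.16, PSMA4 0.27, PSMD11 0.35 and NFE2L1 0.46 in SNU-449. Without a filter, POMP in HepG2 cytoplasm was -0.04, the HepG2 difference between fractions gave 1 higher and 1 lower, SNU-449 nuclei 1 higher, and the line difference of cytoplasmic effects 6 lower. RLE size factors and DESeq2 each gave 9 members lower in SNU-449 than HepG2 NC cytoplasm. The cause was not tested.

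Leaving out 1 library at a time, POMP ran from -0.14 to 0.19 in HepG2 cytoplasm, -0.49 to 0.09 in HepG2 nuclei and -0.13 to 0.26 in SNU-449 cytoplasm. PSMB5 (-0.25 to 0.08) and PSME2 (-0.08 to 0.30) in HepG2 cytoplasm, PSMB7 (-0.12 to 0.16) in HepG2 nuclei, PSME4 (-0.06 to 0.34) in SNU-449 cytoplasm and PSMB9 (-0.19 to 0.12) in SNU-449 nuclei also changed sign, and none of these was called. The HepG2 difference between fractions ran from 0 to 1 higher and 0 to 4 lower, SNU-449 cytoplasm from 2 to 7 higher, and SNU-449 nuclei from 1 to 4 higher and 14 to 24 lower. The line difference of cytoplasmic effects ran from 2 to 6 higher and 5 to 12 lower, and that of nuclear effects from 1 to 3 higher. Low counts limit PSMA2 most among the tested members, and PSMA8 and PSMB11 could not be tested.

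Libraries with the same replicate number showed little shared deviation, the correlation of their deviations across genes running from -0.259 to 0.141. With 2 libraries per group, these values cannot show whether the numbers pair the samples, and the main fits used no pairing. The replicate block left 1 member lower in the HepG2 difference between fractions and moved no other count by over 1.5 times.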

Other observations

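PSMG3-AS1, a non-coding gene on the strand opposite the chaperone gene PSMG3, was read after its values were seen. In HepG2 nuclei it stood at 1.13 and 1.32 CPM with NC and 4.22 and 4.45 CPM with siPANAD (log2 fold change 1.82), and in SNU-449 nuclei at 2.32 and 2.60 CPM against 13 and 12.3 CPM (2.36). SNU-449 cytoplasm went from 3.81 and 3.97 CPM to 10.4 and 13.4 CPM (1.62). In HepG2 cytoplasm PSMG3-AS1 was called higher at 0.74, a call lost under 9 of 13 alternatives. PSMG3 itself fell in HepG2 cytoplasm (-0.51), was at -0.51 in HepG2 nuclei, a call lost without the second NC (-0.23, adjusted p = 0.238) or the second siPANAD library (-0.44, adjusted p = 0.0783), and was at -0.20 and -0.21 in SNU-449, below the threshold. PSMB8-AS1, opposite PSMB8, rose in HepG2 as PSMB8 did (2.30 and 1.98), and in SNU-449 nuclei (0.84), and was at -0.03 in SNU-449 cytoplasm, where PSMB8 rose by 0.41. PSMB8-AS1 also shares 174 exonic bases on the same strand with PSMB9, which rose in HepG2, so its counts are uncertain.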
